A study of Homo sapiens with 13 samples.

Results

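The 10 genes described here encode receptors and ligands of the epidermal growth factor (EGF) system: the ligands EGF, TGFA, HBEGF, AREG, EREG, BTC and EPGN and the receptors EGFR, ERBB2 and ERBB3. They were chosen by name from the 19970 protein-coding genes of the RefSeq annotation of GRCh38, and each was examined over its annotated span plus 50 kb on both sides. The data are CUT&RUN peak lists, in which a nuclease tethered to an antibody releases the DNA beside a bound protein or modified histone. The cells were PANC1, an established line from a human pancreatic ductal carcinoma, in a stable line expressing BRG1 that the sample titles call BRG oe, and they were mildly crosslinked. The 6 targets, with 2 libraries each, were BRG1, SMARCC1, NRF2, H3K4me1, H3K4me3 and H3K27ac. BRG1 is the ATPase of a SWI/SNF chromatin remodelling complex, SMARCC1 is a core subunit of that complex, and NRF2 is the transcription factor of the antioxidant response. All 12 libraries came from the BRG1-expressing cells, so no value below says what BRG1 changed. The labels say neither whether that line was 1 clone nor whether the replicates were separate cultures.

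The receptors are tyrosine kinases of the cell surface. A ligand brings them together in pairs, and the kinases then switch on the RAS–MAP kinase and PI3 kinase pathways. ERBB2 has no known ligand of its own and ERBB3 is nearly without kinase activity, so both signal mainly as partners. Each ligand is made as a membrane-anchored precursor that a metalloprotease can shed. As general background on the marks, H3K4me3 sits at promoters, H3K4me1 at enhancers and around promoters, and H3K27ac at active promoters and enhancers.

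Peaks per library numbered 17752 to 37283 for the marks, 3213 and 6610 for BRG1, 1538 and 919 for NRF2, and 600 and 572 for SMARCC1. The lowest −log10 p in each list was 2.01 to 2.04, so the lists hold weak peaks. Those with a −log10 q of at least 2 numbered 119 and 541 for BRG1, 330 and 147 for NRF2, and 0 and 0 for SMARCC1. For H3K4me1 they numbered 3554 and 2201, for H3K4me3 16140 and 15413, and for H3K27ac 12626 and 12601. A reproducible region, called a region below, is a stretch of merged peaks with at least 1 peak from each replicate. All fold enrichments are the authors' values per peak, and the mean fold of a region is over the highest peak of each of the 2 libraries, with the SD between them. The files hold no read counts, so the depth is unknown, and a region without a peak may have been read too thinly for one to be listed. Of 7 ductal epithelial markers (KRT7, KRT8, KRT18, KRT19, EPCAM, CDH1 and SOX9), 7 had an H3K27ac region in their window and 7 an H3K4me3 region. The numbers with an H3K27ac region were 3 of 5 for acinar markers, 0 of 4 for endocrine markers and 3 of 4 for blood cell markers, whose windows also hold other genes. Over all protein-coding genes the share with H3K27ac was 71.6%, so the acinar and blood cell counts are near the background. The ductal count is little above what that share gives for 7 genes. H3K4me3 lay in the window of 2 of 5 acinar, 0 of 4 endocrine and 3 of 4 blood cell markers, against 78.2% of all genes. For H3K4me3, too, the ductal count is little above that share. At listed promoters, H3K27ac lay over 1 of 1 ductal, 0 of 5 acinar, 0 of 4 endocrine and 0 of 2 blood cell markers. The share of all genes was 33.2%. H3K4me3 lay over 0 of 1, 0 of 5, 0 of 4 and 1 of 2, against 59.6% of all genes. The 1 ductal promoter was that of KRT8, whose highest mark regions had the same folds as those of KRT18. With 2 libraries against 2, the smallest exact two-sided permutation p would be 0.333. No test between targets was therefore made, and counts for the family are set beside the same counts over all protein-coding genes.

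H3K4me3 was the mark found at most of the family. A region lay in the window of 9 of the 10 genes, where 78.2% of all protein-coding genes had one. H3K27ac was in the window of 8 genes against 71.6% of all genes, and H3K4me1 in that of 6 against 52.6%. All of these counts are near what the background shares give for 10 genes. Many of the regions belong to neighbours. By the rule that a region goes to its nearest protein-coding gene, 8 members had an H3K4me3 region of their own against 62.5% of all genes. By the same rule, 5 members (TGFA, HBEGF, AREG, EREG and EGFR) had an H3K27ac region of their own against 50.1%, and 6 an H3K4me1 region against 31.7%. BRG1 had a region at 1 member, AREG, against 9.32% of all genes, and by the nearest-gene rule also at 1 against 5.9%. NRF2 had a region at 0 members against 1.95% (0.991% by the nearest-gene rule), and SMARCC1 at 0 against 1.6% (0.771%). Regions of all 3 marks lay in the windows of 5 members, against 42.8% of all protein-coding genes, and 4 of these had all 3 nearest to themselves.

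**Figure D1:**
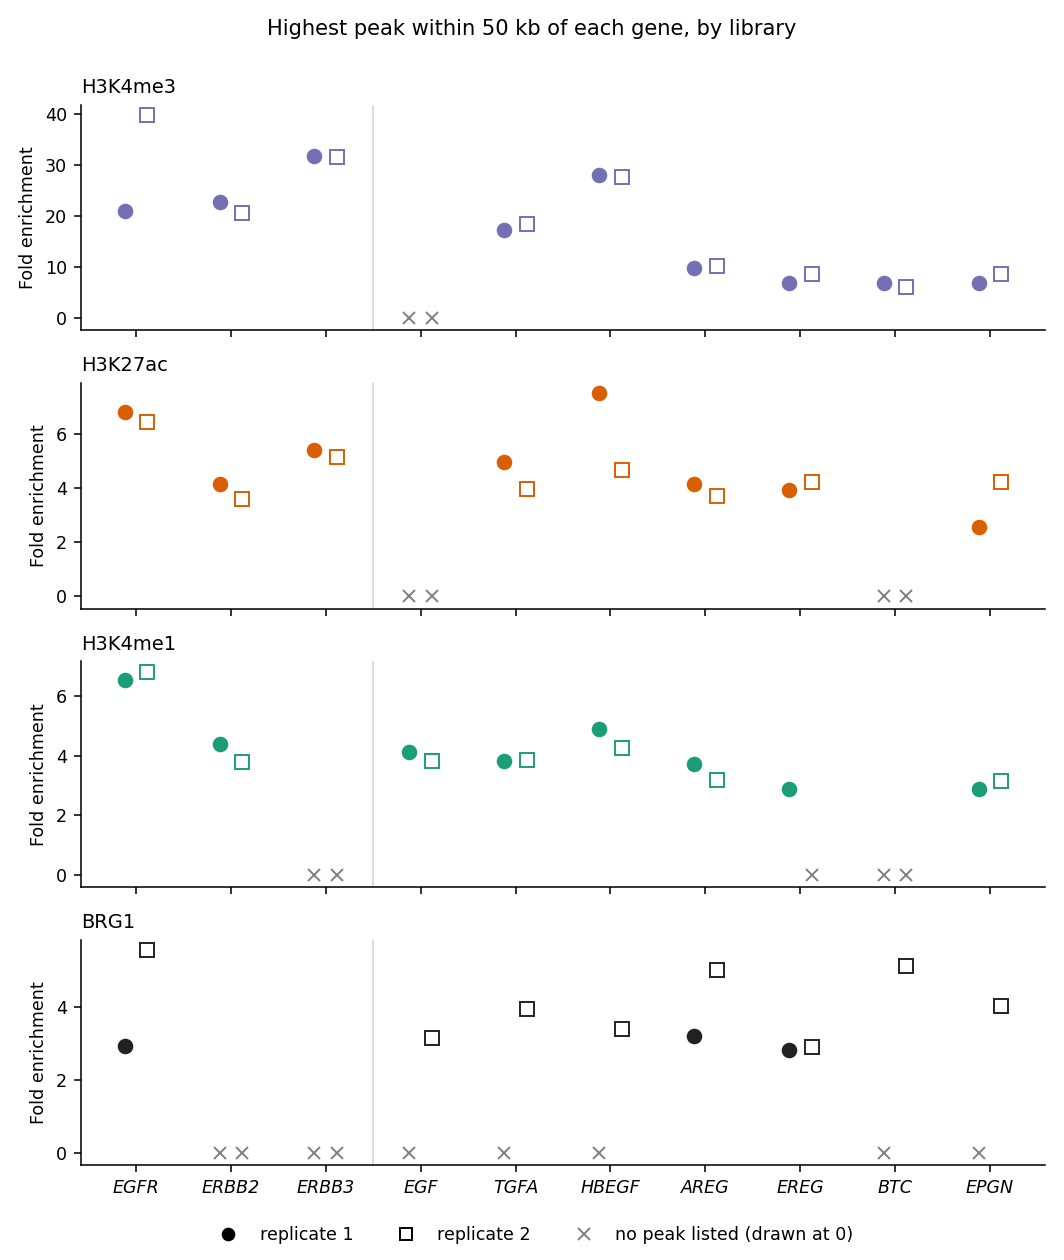
Highest fold enrichment of any peak in the window of each of the 10 genes (horizontal axis, receptors left of the line and ligands right) for the 3 marks and BRG1 (panels); filled circles are replicate 1, open squares replicate 2, and crosses drawn at 0 mean that no peak was listed. H3K4me3 runs from no peak at EGF to 39.8 in replicate 2 at EGFR, and BRG1 is listed at 8 genes in replicate 2 but 3 in replicate 1.

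The family's regions were unevenly spread. EGFR alone held 69.8% of the 53 distinct H3K4me1 regions and 50% of the 48 distinct H3K27ac regions. The median member had 1.5 H3K4me1 regions against 1 for all protein-coding genes, 2.5 H3K27ac regions against 2, and 1 H3K4me3 region against 2. At the promoter itself, taken as the 250 bases before and 50 after a RefSeq start, 9 of the 10 members could be examined. H3K4me3 lay over the promoter of 6 (TGFA, HBEGF, AREG, EREG, BTC and EGFR) against 59.6% of 15812 genes. H3K27ac lay over that of 4 (TGFA, HBEGF, EREG and EGFR) against 33.2%, and H3K4me1 over that of 1, the inner EGFR start, against 2.15%. These 4 genes had both H3K4me3 and H3K27ac over the promoter, against 32.7% of all genes. No BRG1, NRF2 or SMARCC1 region lay over a promoter of these 9 genes, where 0.379%, 0.126% and 0.177% of all genes had one.

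**Figure D2:**
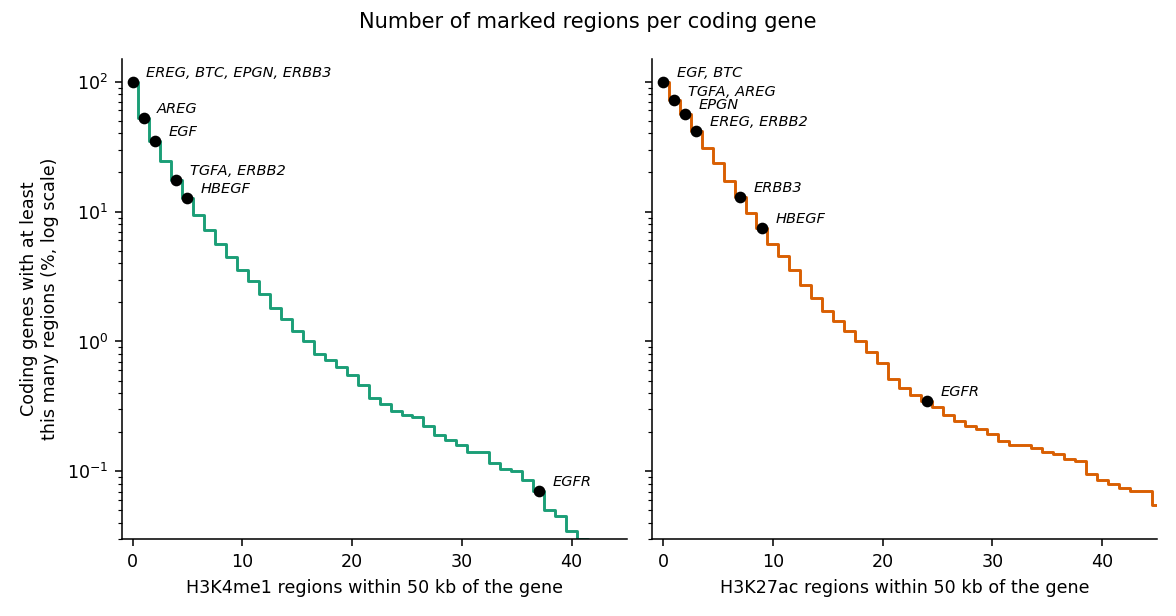
Percent of all 19970 protein-coding genes (vertical axis, log scale) with at least the number of H3K4me1 (left) or H3K27ac (right) regions in the window given on the horizontal axis; points mark the 10 genes, with names joined where they share a count. EGFR stands at 37 H3K4me1 and 24 H3K27ac regions, and the next member at 5 and 9 (HBEGF in both panels).

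EGFR, the receptor of all 7 ligands, had more H3K4me1 and H3K27ac regions in its window than nearly all other genes. Its span is chr7:55019017-55211628 (GRCh38), and no other protein-coding gene lies in its window. RefSeq lists 2 starts, an outer one at the beginning of the span and an inner one at 55109839. The promoter sequences of both are shown because their marks differed: H3K4me3 and H3K27ac lay over the outer window and H3K4me1 over the inner one. Capitals mark the motifs searched on both strands: the AP-1 site TGACTCA, the cyclic AMP response element (CRE) TGACGTCA, the TEAD site GGAATG, the SP/KLF site GGGCGG and the TATA box TATAAA. The core of the antioxidant response element that NRF2 binds, TGACNNNGC, was searched too. The sequences are from RefSeq, GRCh38.p14, both on the plus strand.
EGFR outer start, chr7:55018767-55019066: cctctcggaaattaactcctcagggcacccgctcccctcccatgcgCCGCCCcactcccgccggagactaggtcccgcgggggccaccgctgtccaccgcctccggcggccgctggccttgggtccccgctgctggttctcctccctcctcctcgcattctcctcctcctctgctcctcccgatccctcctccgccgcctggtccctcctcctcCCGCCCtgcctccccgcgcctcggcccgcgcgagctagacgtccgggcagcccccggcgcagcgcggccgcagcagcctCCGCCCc
EGFR inner start, chr7:55109589-55109888: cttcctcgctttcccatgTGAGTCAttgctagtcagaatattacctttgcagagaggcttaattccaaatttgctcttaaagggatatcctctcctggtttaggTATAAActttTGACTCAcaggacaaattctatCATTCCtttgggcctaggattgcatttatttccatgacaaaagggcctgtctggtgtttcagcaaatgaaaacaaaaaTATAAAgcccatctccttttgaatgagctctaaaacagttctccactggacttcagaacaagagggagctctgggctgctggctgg

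The windows differ in composition. The outer EGFR window is 75.3% G and C with 33 CpG, and the inner one 42% with 1 CpG, beside medians of 62.3% and 21 over 22155 listed promoter windows. The outer window holds 3 GGGCGG matches, a motif in 56.3% of all promoter windows. The inner window holds 2 AP-1 matches at 232 and 136 bases before the start, a motif present in 4.02% of windows, 1 TEAD match (12.2% of windows) and 2 TATAAA matches (9.47%). A match describes these letters only.

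H3K4me3 at the outer EGFR start was among the broadest in these cells. Its region, chr7:55018361-55022523, was 4163 bp wide, and 1.71% of all H3K4me3 regions were wider. The highest peak had a fold of 21.0 in replicate 1 and 39.8 in replicate 2, a mean of 30.4 ± 13.2 (SD, n = 2), and 5.69% of regions had a higher mean. The 2 libraries differed here by more than usual: the ratio of replicate 2 to replicate 1 was 1.89, against a median of 1.04 over all H3K4me3 regions, and 1.71% of regions had a larger ratio. H3K27ac over the same start reached 5.46 in replicate 1 and 5.84 in replicate 2, a mean of 5.65 ± 0.269 (SD, n = 2). The inner start had no H3K4me3 or H3K27ac region over its window, but 2 H3K4me1 regions reached into it. One, chr7:55109736-55110064, lay across the start with a mean fold of 3.79 ± 0.448 (SD, n = 2). The other, chr7:55107037-55109608, overlapped only the upstream edge of the window and had a mean of 5.32 ± 1.46 (SD, n = 2).

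Many H3K4me1 and H3K27ac regions lay inside the gene. The EGFR window held 47 and 51 H3K4me1 peaks in replicates 1 and 2, which gave 37 regions over 22.8 kb, and 34 H3K27ac peaks in each replicate, which gave 24 regions over 20.5 kb. Only 10 of the 19970 protein-coding genes had more H3K4me1 regions and 63 had more H3K27ac regions. The EGFR window is long, and per kb of window 36 genes had more H3K4me1 and 907 more H3K27ac regions. The median mean fold at EGFR was 4.0 for H3K4me1 and 4.19 for H3K27ac, beside 3.60 and 3.86 over all regions of each mark. By the highest region in the window, 1.32% of protein-coding genes stood above EGFR for H3K4me1 and 10.8% for H3K27ac. These shares were not adjusted for the number of regions in each window, which was large at EGFR. Of all protein-coding genes, 52.6% had any H3K4me1 region and 71.6% any H3K27ac region.

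Along the gene, counted from the outer start by the middle of each region, the first 10 kb held 1 H3K4me1 and 2 H3K27ac regions. From 10 to 40 kb there were 6 H3K4me1 regions and 0 H3K27ac regions. Both marks were dense from 40 to 70 kb, with 9 H3K4me1 and 11 H3K27ac regions. From 70 to 100 kb, the stretch before and around the inner start, H3K4me1 had 10 regions and H3K27ac 1. From 100 to 120 kb there were 5 and 6, and from 120 to 160 kb 0 of either. Beyond 160 kb, to the end of the window, there were 4 of each, and the last H3K27ac region lay past the gene's end. Upstream of the gene, H3K4me1 had 2 regions and H3K27ac 0. H3K4me1 regions were thus scattered through 2 stretches, 10 to 40 kb and 70 to 100 kb, in which H3K27ac regions were absent or nearly so.

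**Figure D3:**
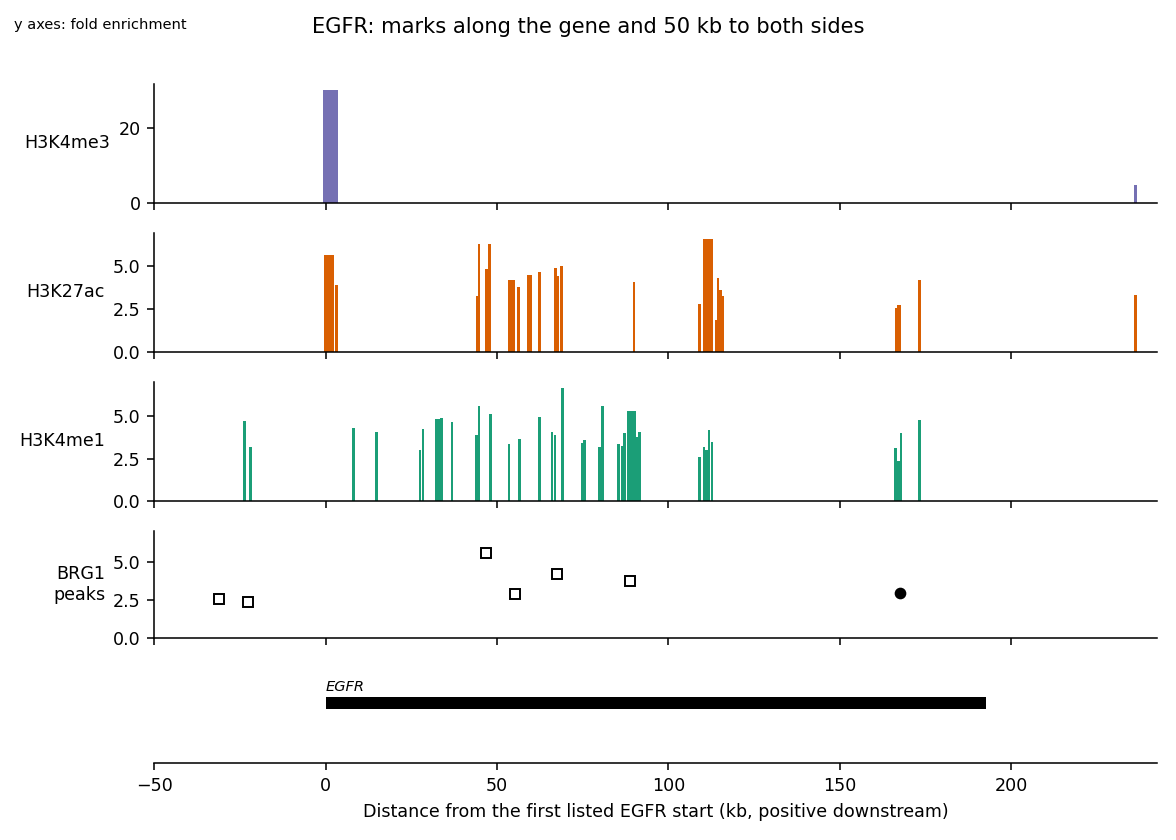
Marked regions along EGFR against distance from the outer listed start in kb, the gene drawn as a black bar at the bottom; bar height is the mean fold of the 2 libraries, narrow bars are drawn at a minimum width, and BRG1 peaks of replicate 1 (filled circle) and replicate 2 (open squares) are drawn at their own fold. H3K27ac gathers between 40 and 70 kb and again near 110 kb, while H3K4me1 regions are also scattered from 10 to 40 kb and 70 to 100 kb.

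The highest H3K27ac region of EGFR lay far from its promoter. It was chr7:55129216-55131986, 110 kb inside the gene and 2771 bp wide, with a fold of 6.78 in replicate 1 and 6.42 in replicate 2 and a mean of 6.60 ± 0.252 (SD, n = 2). The next were chr7:55066284-55067376, 47.3 kb inside, at 6.29 ± 0.0905, and chr7:55063457-55064008, 44.4 kb inside, at 6.28 ± 0.215. These 3 means all lay above that of the promoter region by more than the SD of either. The highest H3K4me1 region was chr7:55087601-55088502, 68.6 kb inside, with 6.55 and 6.82 in the 2 replicates. A region at 80.3 kb, chr7:55099325-55100204, had 5.57 and 5.61 for H3K4me1 and no H3K27ac region on it. The widest H3K4me1 region, chr7:55107037-55109608, which ends before the inner start, was 2572 bp wide and had 6.35 and 4.29.

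The 2 marks overlapped more at EGFR than over all regions. Of its 37 H3K4me1 regions 18 met an H3K27ac region, 48.6% against 21.7% of all H3K4me1 regions. Of its 24 H3K27ac regions 14 met H3K4me1, 58.3% against 20.8%, and 3 met H3K4me3, 12.5% against 54.8%. Regions of 1 gene are not independent, so these shares are a description. The last H3K27ac region of the window, chr7:55255165-55255615, lay 43537 bp beyond the gene's end on a small H3K4me3 region, chr7:55255076-55255632, with folds of 4.55 and 5.28.

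ERBB2, the partner receptor with no known ligand, had H3K4me3 inside its span and none at its listed start. Its span is chr17:39688094-39728658, and 7 other protein-coding genes lie in its window: STARD3, TCAP, PNMT, PGAP3, MIEN1, GRB7 and IKZF3. Its own H3K4me3 region, chr17:39699733-39700836, lay 11.6 kb downstream of the single start that the promoter table lists. Whether this region lies over a further ERBB2 start was not tested. It had a fold of 15.9 in replicate 1 and 20.5 in replicate 2, a mean of 18.2 ± 3.25 (SD, n = 2), and 26.9% of H3K4me3 regions were higher. No reproducible H3K27ac region was nearest to ERBB2, though replicate 1 listed an H3K27ac peak of 4.15 at chr17:39699745-39700154, inside the H3K4me3 region. The 3 H3K27ac regions of the window lay nearest to MIEN1, with a mean of 3.66 ± 0.0860 (SD, n = 2), and to IKZF3. H3K4me1 had 2 regions of ERBB2's own, 13.3 and 14.9 kb from the start, with means of 2.91 ± 0.0493 and 3.89 ± 0.694.

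The ERBB3 window was strongly marked, almost wholly at other genes. The span of ERBB3, which couples the family to PI3 kinase, is chr12:56080108-56103505, and 8 other protein-coding genes lie in its window. The highest H3K4me3 fold, 31.7 in replicate 1 and 31.5 in replicate 2, belonged to chr12:56103576-56106517, nearest to PA2G4 and 71 bp past the end of ERBB3. ERBB3's own H3K4me3 region, chr12:56079128-56080018, ended 90 bp below the lower end of its span and had 5.14 and 4.74, a mean of 4.94 ± 0.285 (SD, n = 2). By that mean it stood low, since 80.7% of H3K4me3 regions were higher. All 7 H3K27ac regions of the window lay nearer to other genes, led by those at ESYT1 (5.18 ± 0.0344) and PA2G4 (5.16 ± 0.338). No H3K4me1 peak was listed in either library. ERBB3 is not in the promoter table used here.

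**Figure D4:**
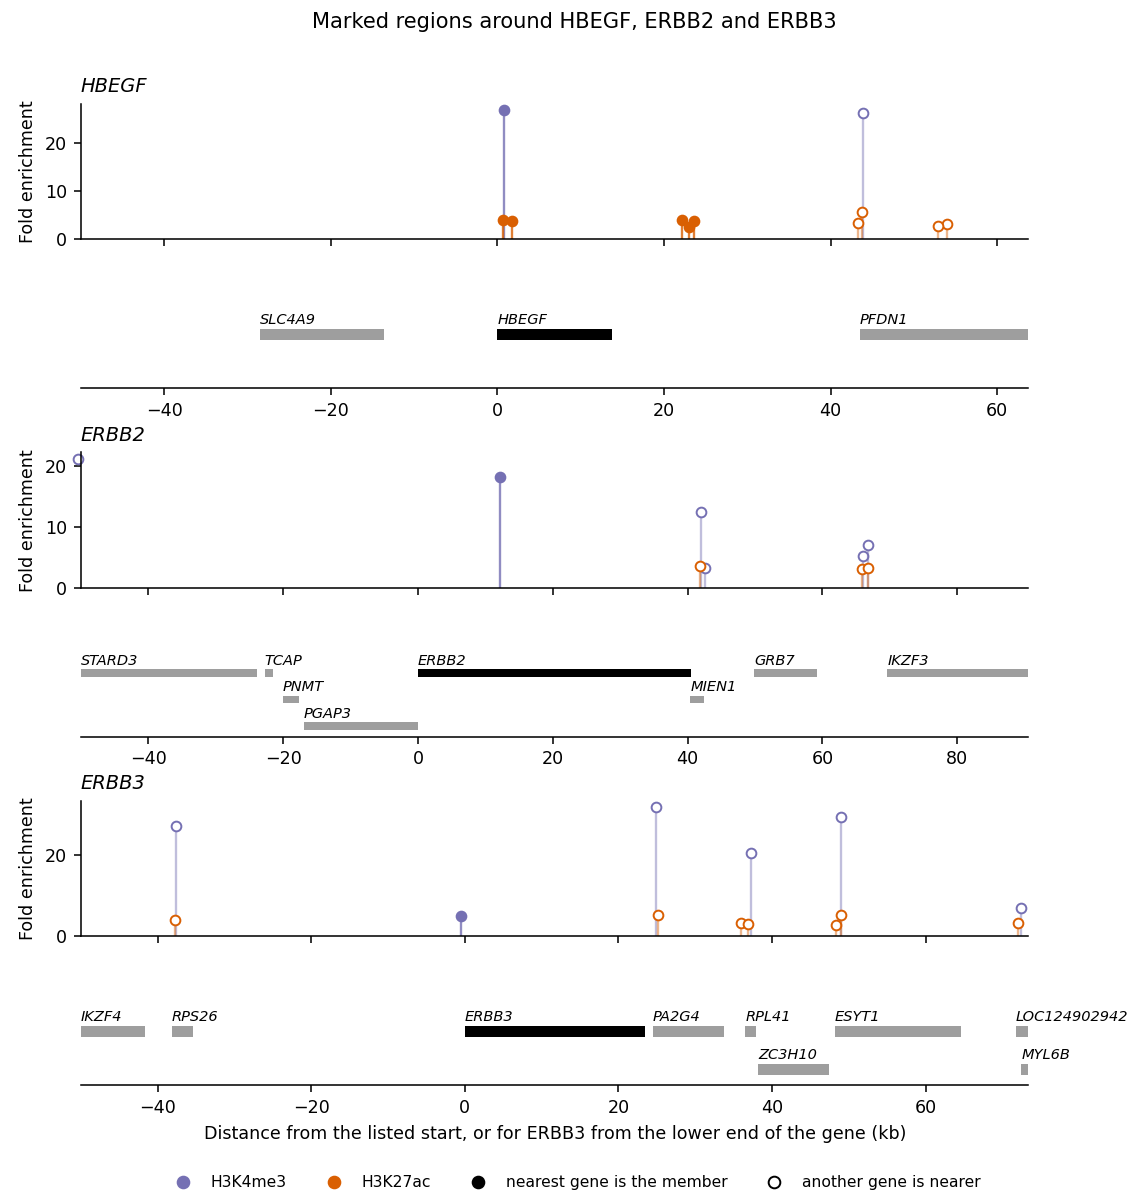
Mean fold of the H3K4me3 and H3K27ac regions around HBEGF, ERBB2 and ERBB3 against distance in kb from the listed start (ERBB3: the lower end of its span), with gene spans drawn under each panel; filled points are regions nearest to the named gene and open points regions nearest to another. At ERBB3 the gene's own H3K4me3 region, at 4.94, stands below the neighbours' regions, which reach 31.6.

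Of the ligands, HBEGF had the highest H3K4me3. It encodes the heparin-binding ligand that activates EGFR and ERBB4. Its span is chr5:140332843-140346603 on the minus strand, with PFDN1 and SLC4A9 in the window. The region over its start, chr5:140344836-140346867, had a fold of 26.1 in replicate 1 and 27.7 in replicate 2, a mean of 26.9 ± 1.15 (SD, n = 2), and 9.20% of H3K4me3 regions were higher. The replicates lay close together, in contrast to EGFR, whose H3K4me3 mean of 30.4 cannot be set above this one given its SD of 13.2.

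HBEGF had 9 H3K27ac regions in its window, 5 of them nearest to it, and 5.64% of protein-coding genes had more in theirs. The promoter region, chr5:140345369-140346568, had 3.43 in replicate 1 and 4.65 in replicate 2, a mean of 4.04 ± 0.858 (SD, n = 2). The region with the window's highest mean, 7.49 and 4.08, lay at PFDN1, and in replicate 2 the HBEGF promoter region was the higher of the pair. A second group of HBEGF's own regions stood 8206 to 9532 bp past the 3′ end of the gene, where 3 H3K27ac regions had means of 2.63, 3.76 and 4.14. The last of these, chr5:140324240-140324637, lay within an H3K4me1 region, chr5:140324228-140325154, whose folds were 4.64 and 2.62. A further H3K4me1 region, chr5:140344558-140345060, had 4.89 and 3.82 and lay 1.54 kb inside the gene, where it met both other marks.

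TGFA, the ligand that also binds EGFR and is often made by the cells that carry the receptor, had both promoter marks, with H3K4me1 alone inside the gene. Its span is chr2:70447284-70553826 on the minus strand, with no other protein-coding gene in the window. One H3K4me3 region, chr2:70552362-70554211, covered both listed starts with 17.2 in replicate 1 and 18.5 in replicate 2, a mean of 17.8 ± 0.921 (SD, n = 2). One H3K27ac region, chr2:70553133-70553608, lay over the window of the inner start, with 4.97 and 3.94. The 4 H3K4me1 regions lay 12.1 to 29.9 kb inside the gene, with means from 3.21 to 3.77, and none met H3K27ac.

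EGF, the founding ligand, lacked both promoter marks. Its span is chr4:109912883-110013766, with LRIT3 and ELOVL6 in the window, and no H3K4me3 or H3K27ac peak was listed in any of the 4 libraries of those marks. It was the only member with no H3K4me3 peak in its window. Its own H3K4me1 region, chr4:109967932-109968266, lay 55.0 kb inside the gene and had 3.49 in replicate 1 and 3.82 in replicate 2. The window's other H3K4me1 region had a mean of 3.96 ± 0.244 (SD, n = 2) and lay nearest to ELOVL6.

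EPGN, EREG, AREG and BTC follow one another on chromosome 4, with gaps of 48.4, 56.4 and 290 kb between their spans. All encode EGF-like ligands: amphiregulin (AREG) binds EGFR, epiregulin (EREG) and betacellulin (BTC) bind EGFR and ERBB4, and epigen (EPGN) is a ligand of EGFR. The 4 promoters are shown because H3K4me3 lay over those of AREG, EREG and BTC and not over that of EPGN, which was added for contrast after its values were seen. The sequences are from RefSeq, GRCh38.p14, written in the direction of the gene, with the same motifs in capitals.
AREG, plus strand, chr4:74444886-74445185: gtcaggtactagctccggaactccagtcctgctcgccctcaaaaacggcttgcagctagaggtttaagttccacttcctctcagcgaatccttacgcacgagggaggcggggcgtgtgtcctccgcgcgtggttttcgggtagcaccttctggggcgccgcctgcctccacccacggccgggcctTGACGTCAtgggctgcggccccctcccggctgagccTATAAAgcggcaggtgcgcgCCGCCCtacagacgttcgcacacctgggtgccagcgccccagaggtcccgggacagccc
EREG, plus strand, chr4:74364895-74365194: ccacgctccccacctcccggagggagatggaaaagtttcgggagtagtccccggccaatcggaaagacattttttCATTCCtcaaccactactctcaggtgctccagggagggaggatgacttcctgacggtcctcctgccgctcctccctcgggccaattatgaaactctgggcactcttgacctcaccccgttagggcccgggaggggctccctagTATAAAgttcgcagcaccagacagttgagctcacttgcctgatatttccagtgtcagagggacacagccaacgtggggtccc
BTC, minus strand, chr4:74794474-74794773: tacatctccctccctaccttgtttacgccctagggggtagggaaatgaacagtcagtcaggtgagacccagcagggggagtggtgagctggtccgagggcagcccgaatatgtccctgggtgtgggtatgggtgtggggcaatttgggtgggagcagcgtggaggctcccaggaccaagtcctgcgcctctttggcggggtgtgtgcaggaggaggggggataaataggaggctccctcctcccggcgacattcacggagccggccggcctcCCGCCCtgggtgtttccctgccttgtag
EPGN, plus strand, chr4:74308220-74308519: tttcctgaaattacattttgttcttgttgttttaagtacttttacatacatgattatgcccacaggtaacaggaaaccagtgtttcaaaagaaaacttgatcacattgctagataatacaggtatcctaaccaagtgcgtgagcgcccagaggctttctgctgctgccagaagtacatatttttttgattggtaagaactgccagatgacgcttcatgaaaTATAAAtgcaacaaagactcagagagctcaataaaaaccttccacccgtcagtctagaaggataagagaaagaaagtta

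The G and C content of these windows is 66.3% at AREG, 57.7% at EREG, 63% at BTC and 37.7% at EPGN, and the CpG counts are 27, 12, 12 and 4. AREG has a CRE 65 bases before its start, a motif in 2.26% of all promoter windows, and a TATAAA 29 bases before it. EREG has a TATAAA at 32 bases and EPGN one at 29 bases before the start. BTC has 1 GGGCGG match, 23 bases into the gene. The antioxidant response element core, present in 13.8% of windows, is in none of these 4 windows or of the EGFR ones.

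AREG had the highest H3K4me3 of the cluster. Its H3K4me3 region, chr4:74444935-74445792, had 9.83 in replicate 1 and 10.3 in replicate 2, a mean of 10.05 ± 0.307 (SD, n = 2), close to the median of 11.2 over all H3K4me3 regions. H3K27ac peaked just beyond the start, at chr4:74445278-74445515, with 4.13 and 3.71. The only H3K4me1 region, chr4:74500917-74501350, lay 55.8 kb from the start and had 2.92 and 3.18.

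H3K4me3 at EREG was lower and broader than at AREG. Its region, chr4:74364452-74367014, was 2563 bp wide, with 14.7% of H3K4me3 regions wider, and its highest peak had 6.94 in replicate 1 and 8.57 in replicate 2. It was 1 peak in replicate 1 and 4 peaks in replicate 2. Both AREG values of H3K4me3 lay above both EREG values. H3K27ac had 3 regions: chr4:74364849-74365429 over the start with 2.35 and 4.20, chr4:74364050-74364718 just before it with 2.54 and 3.86, and chr4:74376083-74376711, 10.9 kb inside the gene, with 3.91 and 3.30. The last of these was the higher in replicate 1 and the lower in replicate 2 when set against the region over the start. H3K4me1 was listed in replicate 1 only, with 2 peaks of up to 2.89.

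BTC and EPGN, at the outer ends of the cluster, were the least marked. BTC's H3K4me3 region over its start, chr4:74794026-74794654, had 6.82 in replicate 1 and 6.15 in replicate 2, a mean of 6.48 ± 0.477 (SD, n = 2), with no H3K27ac or H3K4me1 peak in the window in either library. EPGN was nearest to no region of any of the 6 targets. The H3K4me3 and H3K27ac regions in its window were those at the EREG start. Its H3K4me1 peaks, 2.88 in replicate 1 and 3.14 in replicate 2, lay at different positions.

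**Figure D5:**
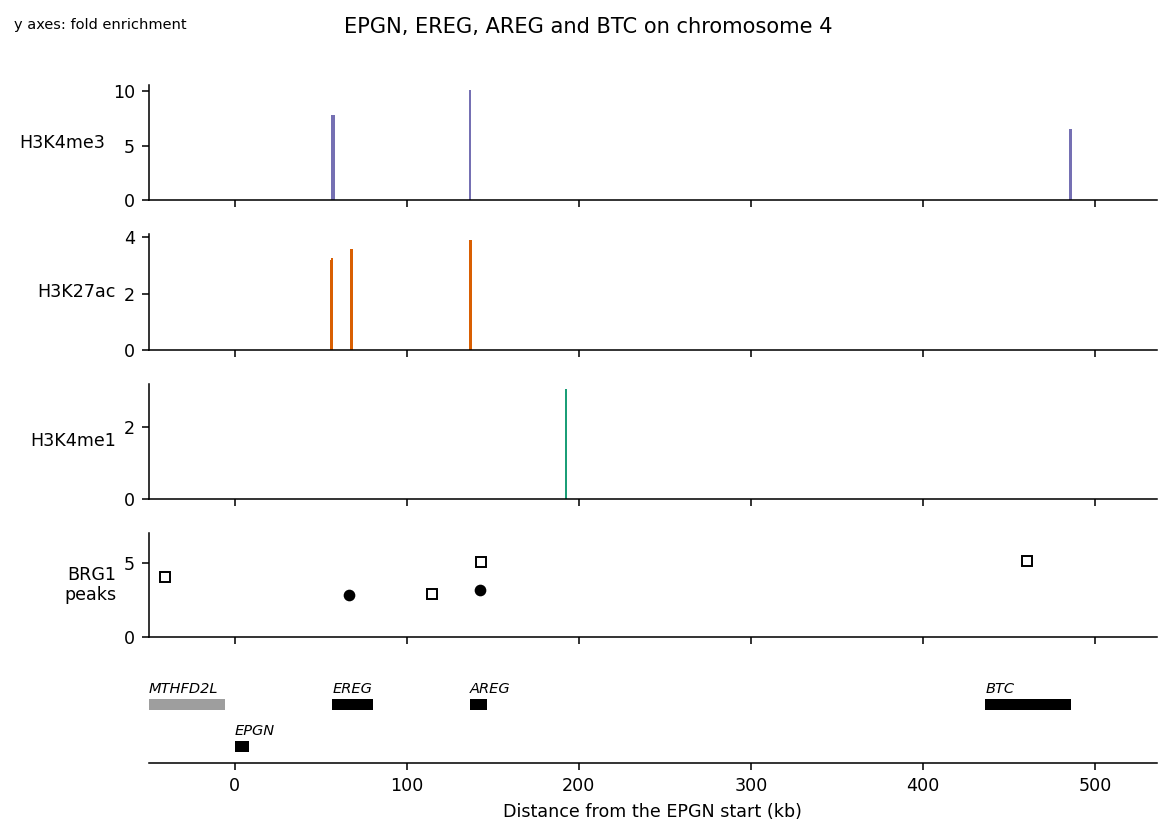
Mean fold of the regions of each mark, and the fold of BRG1 peaks in replicate 1 (filled circles) and replicate 2 (open squares), against distance from the EPGN start in kb, with gene spans at the bottom; narrow bars are drawn at a minimum width. H3K4me3 rises at the starts of EREG (7.75), AREG (10.05) and BTC (6.48), and the BRG1 peaks lie apart from these bars.

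BRG1 had peaks in the windows of 3 members in replicate 1 and 8 in replicate 2, where 14.1% and 26.3% of all protein-coding genes had one. The 1 reproducible region among them, chr4:74451105-74451640, lay 5.97 kb inside AREG. It had a fold of 3.19 in replicate 1 and 5.03 in replicate 2, a mean of 4.11 ± 1.30 (SD, n = 2). A higher BRG1 region lay in the window of 3.36% of all protein-coding genes, and any BRG1 region in that of 9.32%. The authors' −log10 q was 0 in replicate 1 and 1.93 in replicate 2. The region met no region of any histone mark. It was lost at a −log10 p of at least 5 or a −log10 q of at least 2.

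The other BRG1 peaks were in 1 library each. EGFR had 1 in replicate 1, chr7:55186271-55186721 with a fold of 2.93, and 6 in replicate 2, with no position shared. The strongest of these, chr7:55065583-55066131, lay 46.6 kb inside EGFR and overlapped an H3K27ac region, with a fold of 5.57 and a −log10 q of 4.35. The other 5 had folds between 2.38 and 4.21. At EGFR, 3 of the 6 lay in H3K27ac, 1 in H3K4me1 and 2 in no mark. BTC had a peak of 5.11 in replicate 2 at chr4:74768959-74769276, 25.2 kb inside the gene and outside every mark. TGFA, HBEGF, EGF and EPGN had 1 each in replicate 2, with folds of 3.94, 3.41, 3.16 and 4.02, the last 3 of them nearest to PFDN1, ELOVL6 and MTHFD2L. Over all members, 1 of 3 BRG1 peaks in replicate 1 and 6 of 13 in replicate 2 lay in a mark. No share over all BRG1 peaks is set beside these counts or those at EGFR, so they are a description. ERBB2 and ERBB3 had no BRG1 peak in either library.

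NRF2 peaks were listed in replicate 1 at EGFR, ERBB2 and EREG, 3 members against 8.05% of all genes, and at none in replicate 2 against 4.69%. The ERBB2 peak, chr17:39699872-39700071 with a fold of 3.07, lay inside the H3K4me3 region of that gene. EGFR had peaks of 3.04 at chr7:55108944-55109186, within H3K27ac and the wide H3K4me1 region before the inner start, and of 2.54 at chr7:55073935-55074134. The latter lay in H3K27ac and shared 190 bp with a BRG1 peak of replicate 2. At EREG, the NRF2 peak of 3.33 at chr4:74374886-74375244 shared 199 bp with the BRG1 peak of replicate 1, 2.83, outside every mark. Each of these 4 NRF2 peaks had a −log10 q of 0. SMARCC1 had no peak in any member's window in either library, where 5.49% and 5.16% of all genes had one.

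The other genes of the pathway were taken from 5 lists of 48 genes in all. An H3K4me3 region lay in the window of 45 of them and an H3K27ac region in that of 44, against 78.2% and 71.6% of all protein-coding genes, while H3K4me1 was in that of 33 against 52.6%. BRG1 had a region at 13, against 9.32% of all genes, and NRF2 and SMARCC1 at 0, against 1.95% and 1.6%. These window counts were not adjusted for gene length or repeated by the nearest-gene rule. The lists were chosen with earlier results of these data known. The counts by list that follow are to be read against the same shares for each target. Windows of neighbouring genes overlap, and GRB7 shares regions with ERBB2.

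Among the 5 other receptors and ligands, the fourth receptor, ERBB4, had 5 H3K4me1 regions, no H3K4me3 or H3K27ac region and a BRG1 region with 3.23 in replicate 1 and 5.46 in replicate 2. The window of NRG4, a neuregulin, had the highest H3K27ac of that list, 8.59. That region did not lie over the listed NRG4 promoter, and no H3K4me3 region did. All 5 genes of ligand shedding had H3K27ac in the window, against 71.6% of all genes. ADAM17, the main sheddase of AREG, EREG, TGFA and HBEGF, had both H3K4me3 and H3K27ac over its promoter, with a highest H3K27ac region of 6.0. All 18 adaptors and effectors had both H3K4me3 and H3K27ac in the window, against 78.2% and 71.6% of all genes, and 4 (SOS1, SOS2, GAB2 and PIK3R1) had a BRG1 region, against 9.32%. Those of SOS1 and SOS2 lay nearest to other genes, ARHGEF33 and VCPKMT. The GAB2 region had 5.28 and 5.60 and lay in H3K4me1 and H3K27ac.

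Of the 12 feedback inhibitors, which damp receptor or MAP kinase signalling, 12 had H3K4me3 (78.2% of all genes), 11 H3K27ac (71.6%) and 6 BRG1 regions (9.32%) in the window. The 6 were LRIG1, SPRED1, SPRED2, DUSP5, DUSP6 (where the nearest span was the readthrough gene POC1B-DUSP6) and CBLB, and the highest BRG1 region of these, at DUSP5, had 4.24 in replicate 1 and 5.30 in replicate 2. SPRED2, a RAS–MAP kinase inhibitor, matched EGFR's count of H3K4me1 regions with 37, and had 16 H3K27ac regions. Of the 8 transcription factors that the pathway induces, 8 had H3K4me3 (78.2% of all genes), 7 H3K27ac (71.6%) and 1, ETV5, a BRG1 region (9.32%). FOSL1 had 20 H3K27ac regions in its window, which also held 9 H3K4me3 regions. How many of the regions given for SPRED2 and FOSL1 lay nearest to those genes was not counted.

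Genes most like a member were sought for EGFR, HBEGF and ERBB3, the 3 with the highest mean H3K27ac fold in the window, by the Euclidean distance over the 12 libraries of log2(highest fold + 1). For EGFR they were CCDC80 and CTDSP2, at distances of 0.671 and 0.730 where the median gene stood at 5.10. CCDC80 had H3K4me3 folds of 26.2 and 31.0 and H3K27ac folds of 6.23 and 6.07. For HBEGF they were ARHGAP21 and PCMTD1, at 0.339 and 0.373 against a median of 3.84, and for ERBB3 TRIM59 and FOXC2, at 0.100 and 0.118 against 4.14. The highest H3K27ac peaks in the ERBB3 window lie at neighbouring genes in both libraries, and that of HBEGF in replicate 1 does, so these likenesses describe windows.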

How the data were processed

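Peak lists of 12 CUT&RUN libraries, 2 for each of 6 targets in BRG1-expressing PANC1 cells, were analysed, and groups follow the target and replicate number in the sample titles. The IgG library was not used here. Tools listed in the submitters' processing notes are MACS2 2.2.7.1, Picard 2.23.9, Bowtie2 2.4.1 and SAMtools 1.9, with GRCh38 as the build. Their roles and settings are not given in the sources used here. Each list came from 1 library. The fold enrichment of a peak, a ratio, is the authors' deposited value, and whether it is over IgG or over local background is not given in the sources used here. The −log10 p and −log10 q are also the authors' deposited values. They served as thresholds in alternatives and to describe peaks and libraries. The deposited score of each peak was not used.

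Peaks of chromosomes 1 to 22 and X were used. Regions were computed as peaks of both replicates merged where they overlapped by at least 1 bp, keeping those with a peak from each. Gene spans and promoter windows came from RefSeq, GRCh38.p14, without exons, so exonic and intronic positions are not given; 1 gene was kept per symbol. Distances run from the listed start. The nearest protein-coding gene was the one with the closest span. No statistical test was made, since each target has 2 libraries. The 10 members and all lists were chosen with earlier results of these data known. One gene of the marker lists is not reported here. All members were named, and from each list the genes with a factor region or with high H3K27ac could be named. Alternatives were windows of 10 and 100 kb, a −log10 p of at least 5, a −log10 q of at least 2, peaks of either replicate, an overlap of at least 50% of the shorter peak, regions of the nearest gene only, and each library left out. The region and window steps were tested on simulated data. Analyses used Python 3.11.15, NumPy 2.4.6, pandas 2.3.3 and matplotlib 3.10.9.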

Additional observations from a re-analysis of the deposited data

How the results depend on the processing

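The number of members with an H3K4me3 region (9) and that with a SMARCC1 region (0) moved by less than 1.5 times under every alternative run. Of the 54 recomputed counts of members 41 did so, and of the 54 counts of regions 40. At a −log10 p of at least 5, members with a region numbered 1 for H3K4me1 (EGFR), 3 for H3K27ac (HBEGF, EGFR and ERBB3) and 0 for BRG1, with 8, 19 and 0 regions. At a −log10 q of at least 2 they were again 1, 3 and 0, with 5, 19 and 0 regions. Of EGFR's 24 H3K27ac regions 15 passed either threshold, and HBEGF kept 1 of its own. Over all protein-coding genes the shares at that −log10 p were 14.8%, 49.2% and 2.0%. At that −log10 q they were 7.75%, 51.4% and 0.471%. With peaks of either replicate, BRG1 had 8 members (29.2% of all genes) and 15 regions, NRF2 3 members (10.4%) and 4 regions, and H3K4me1 89 regions. At 100 kb, BRG1 had 2 members but still 1 region, which both windows held. The share of all genes at 100 kb was not computed. At 10 kb H3K4me3 had 11 regions. With the nearest gene only, H3K27ac had 5 members and H3K4me3 9 regions. With 1 library left out and every peak of the other counted, BRG1 gave 3 to 8 members (3 without replicate 2, 8 without replicate 1) and 3 to 13 regions, and NRF2 0 to 3 members and 0 to 4 regions (0 without replicate 1). No paired analysis was possible because no result comes from a test. Depth is unknown, so absent peaks, those of SMARCC1 above all, show no absence of the protein.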

Other observations

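AREG and BTC had H3K4me3 over the promoter window without H3K27ac. At AREG the H3K27ac region began 142 bp downstream of the start, outside the 50 bases that the window includes. The CpG counts of the windows were 38 at HBEGF, 33 at the outer EGFR start, 30 at the outer TGFA start, 27 at AREG, 24 at ERBB2, 12 at EREG and BTC, and 4 at EGF and EPGN. EGF and EPGN were also the 2 members without an H3K4me3 region of their own. The window of the single listed ERBB2 start, with 24 CpG, likewise had no mark over it, while those of EREG and BTC, with 12, had H3K4me3.

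The EGF promoter window, with no mark over it, holds overlapping AP-1, antioxidant response element core and TEAD matches 12 to 19 bases before the start.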
